A study of Mus musculus with 6 samples.

Results

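The 10 genes described here carry peptide presentation on MHC class I: the heavy chain genes H2-K1 and H2-D1, the light chain gene B2m, the peptide transporter genes Tap1 and Tap2, tapasin (Tapbp), the immunoproteasome subunit genes Psmb8, Psmb9 and Psmb10, and the class I transactivator Nlrc5. They were chosen by symbol from a table of normalized counts with 35976 genes, and all 10 were among the 14211 genes that reached a normalized count of 10 in 2 or more libraries and were tested. A normalized count is the number of reads assigned to a gene divided by 1 scaling factor per library.

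RNA was sequenced from primary mouse adipocytes of genotype Ppargc1a(fl/fl), in which loxP sites flank Ppargc1a, the gene of the mitochondrial coactivator PGC-1alpha. All cells were given an adenovirus and an siRNA and were then taken through full differentiation. The control group received GFP virus and control siRNA, the second group GFP virus and an siRNA against the RNA-binding protein gene Rbm43, and the other group Cre virus and Rbm43 siRNA. Cre recombinase excises the floxed gene. There were 2 libraries per group, called biological duplicates without saying whether they came from separate animals, so p-values measure only the spread between these libraries. The strain and its H2 haplotype, the age of the mice and the fat depot are not given in the labels, and a group of Cre virus with control siRNA was not analysed here.

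In most nucleated cells the proteasome cuts cytosolic proteins into peptides, the TAP transporter pumps them into the endoplasmic reticulum, and tapasin helps load them onto a heavy chain paired with beta-2-microglobulin. Interferons replace the catalytic subunits of the constitutive proteasome with those of the immunoproteasome, which favour peptides that class I molecules bind. NLRC5 is recruited to an enhanceosome on the promoters of class I genes, where RFX, CREB/ATF and NF-Y factors bind the X1, X2 and Y boxes; NF-kB and interferon regulatory factors bind elements upstream of it. Adipocytes are known to carry class I molecules and to respond to interferon.

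Promoter windows show how alike the regulatory sequences of the genes are, and the 5 below belong to the genes whose levels are compared most closely. Each runs from 250 bases before to 50 bases after the RefSeq start on GRCm38.p6, the mm10 build, 5′ to 3′ on the gene's own strand. RefSeq windows were found for 8 of the 10 genes. H2-K1 has a pair of annotated starts, of which the first is shown. Capitals mark, on either strand, the NF-kB consensus, the interferon-stimulated response core GAAANNGAAA, a shorter interferon core GAANNGAAA, the gamma-activated site TTCNNNGAA and the X2 half-site TGACG.
H2-K1, chr17:34000298-34000597, minus strand: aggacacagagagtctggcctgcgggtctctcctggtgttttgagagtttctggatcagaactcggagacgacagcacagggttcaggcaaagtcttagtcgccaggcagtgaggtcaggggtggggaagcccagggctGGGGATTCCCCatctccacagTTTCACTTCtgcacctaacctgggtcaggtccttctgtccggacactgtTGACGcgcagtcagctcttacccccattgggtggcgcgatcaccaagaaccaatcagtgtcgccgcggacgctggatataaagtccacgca
H2-D1, chr17:35262844-35263143, plus strand: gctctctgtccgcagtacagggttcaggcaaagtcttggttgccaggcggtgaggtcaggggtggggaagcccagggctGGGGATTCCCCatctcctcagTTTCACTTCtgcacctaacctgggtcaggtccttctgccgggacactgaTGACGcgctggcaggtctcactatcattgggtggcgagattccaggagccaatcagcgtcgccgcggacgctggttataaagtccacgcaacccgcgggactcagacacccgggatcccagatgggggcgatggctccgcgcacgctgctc
B2m, chr2:122147437-122147736, plus strand: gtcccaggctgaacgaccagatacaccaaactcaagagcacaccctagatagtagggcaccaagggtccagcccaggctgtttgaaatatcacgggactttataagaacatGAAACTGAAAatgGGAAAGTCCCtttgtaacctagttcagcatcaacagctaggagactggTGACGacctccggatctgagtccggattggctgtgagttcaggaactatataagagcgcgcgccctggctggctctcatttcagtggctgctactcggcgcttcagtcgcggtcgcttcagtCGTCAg
Tap1, chr17:34187306-34187605, plus strand: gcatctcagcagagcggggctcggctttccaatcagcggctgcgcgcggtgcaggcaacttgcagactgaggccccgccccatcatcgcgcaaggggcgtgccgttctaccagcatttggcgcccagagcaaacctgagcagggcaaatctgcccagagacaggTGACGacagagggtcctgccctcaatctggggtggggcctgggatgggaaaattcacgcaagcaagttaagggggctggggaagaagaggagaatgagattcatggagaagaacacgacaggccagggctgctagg
Psmb8, chr17:34197945-34198244, plus strand: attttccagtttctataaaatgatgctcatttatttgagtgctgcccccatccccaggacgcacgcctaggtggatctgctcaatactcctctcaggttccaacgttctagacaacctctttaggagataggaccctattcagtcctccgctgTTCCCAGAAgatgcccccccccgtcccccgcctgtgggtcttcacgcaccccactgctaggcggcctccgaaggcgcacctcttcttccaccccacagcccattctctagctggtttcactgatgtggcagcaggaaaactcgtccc

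The H2-K1 and H2-D1 windows were identical at 211 of 239 aligned bases (88.3%). Counted from the first base of the NF-kB consensus, the shorter interferon core began 21 bases later, the X2 half-site 70 bases later and the Y box core (CCAAT) 95 bases later in both. The distance to the annotated start differed: the NF-kB consensus began at -111 in H2-K1 and at -171 in H2-D1, counting the start as 0. In B2m the interferon-stimulated response core at -139 to -130 was followed by the NF-kB consensus at -126 to -117. Psmb8 held none of these but a gamma-activated site at -97 to -89. Tap1 and Psmb9 are transcribed away from each other from RefSeq starts 225 bases apart. Their windows share 275 bases, so the X2 half-site in the Tap1 window is also the one in the Psmb9 window.

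Of all 32851 RefSeq windows of this length, 3.44% held the interferon-stimulated response core, against B2m alone of the 8 genes. The shorter interferon core, added to the search after the windows had been read, was in 7.52% of all windows and in H2-K1 and H2-D1. The NF-kB consensus was in 8.46% of all windows and in H2-K1, H2-D1 and B2m, and the gamma-activated site was in 8.30% and in Psmb8. The X2 half-site was in 20.8% of all windows and in H2-K1, H2-D1, B2m, Tap1 and Psmb9, and the Y box core was in 37.4% and in 6 of the 8 genes. These are matches of letters, not measured binding.

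On mm10, H2-K1 lies at chr17:33996012-34000619 and Tapbp at chr17:33919478-33929290. Psmb9 (chr17:34182030-34187330), Tap1 (chr17:34187556-34197225), Psmb8 (chr17:34198195-34201454) and Tap2 (chr17:34204479-34216321) sit side by side within 34292 bases. H2-D1 follows at chr17:35263094-35267497. B2m is at chr2:122147687-122153082, Nlrc5 at chr8:94434335-94527272 and Psmb10 at chr8:105935728-105938392. In the GENCODE M21 annotation, 8 of the 10 genes overlap a gene on the opposite strand, among them Psmb9 and Tap1, which share 212 bases, and B2m, which lies within Patl2. Whether reads were counted by strand is not given in the sources used here, so reads of these pairs cannot be assigned with certainty. Tapbp also overlaps Zbtb22 on its own strand over 3422 bases, and Zbtb22 stood at 254 to 325 normalized counts. Nlrc5 overlaps Mir7072 on its own strand over 60 bases. Counting by strand would not separate these. H2-K1 and H2-D1 overlap no other gene.

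The 6 libraries held 15775398 to 21961724 reads in genes. Rbm43 stood at 185 and 224 normalized counts in the control libraries, at 43.7 and 46.6 with Rbm43 siRNA and at 53.8 and 32.5 with Cre virus and Rbm43 siRNA, as the labels say. Ppargc1a was at 163 and 202, at 399 and 423, and at 463 and 469 in the same order. A count over the whole gene does not check whether Cre removed the floxed part. Adipocyte markers were present in every library, with 8 of 8 tested and Adipoq at 18219 to 23077. Markers of T and NK cells summed to at most 1.87 normalized counts over 8 genes, of which Cd3d, Cd8a, Ncr1 and Prf1 were at 0 throughout, and Ms4a1, a B cell marker, was at 0 as well. All 10 macrophage markers were tested, and their sum ran from 1531 to 1852.

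The main question of the design is what Rbm43 knockdown does to gene expression. With GFP virus, 6 of the 10 genes rose with Rbm43 siRNA and none fell past the threshold (limma, Benjamini-Hochberg adjusted p under 0.05 over all genes tested). The 6 were H2-D1, B2m, Tap1, Psmb8, Psmb9 and Nlrc5, with rises in mean normalized count from 32.1% (H2-D1) to 54.6% (Psmb9). H2-K1, Tap2, Tapbp and Psmb10 did not pass. At an unadjusted p under 0.05, 7 were higher and 0 lower, beside 18.4% and 15.5% of all genes tested. On recovered reads edgeR and DESeq2 also called 6 higher and 0 lower. Of all genes tested, 13.5% were called higher and 9.76% lower. The median log2 fold change of the 10 genes was 0.41, against -0.01 over all genes. In 7 of the 10 genes both knockdown libraries lay above both controls, in 1 (Tap2) both lay below, and in 2 the groups overlapped. Over all genes tested, 29.2% had both knockdown libraries above both controls and 29.2% had both below. In bulk RNA a change in the share of cells that express a gene and a change in RNA per cell cannot be told apart.

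**Figure D1:**
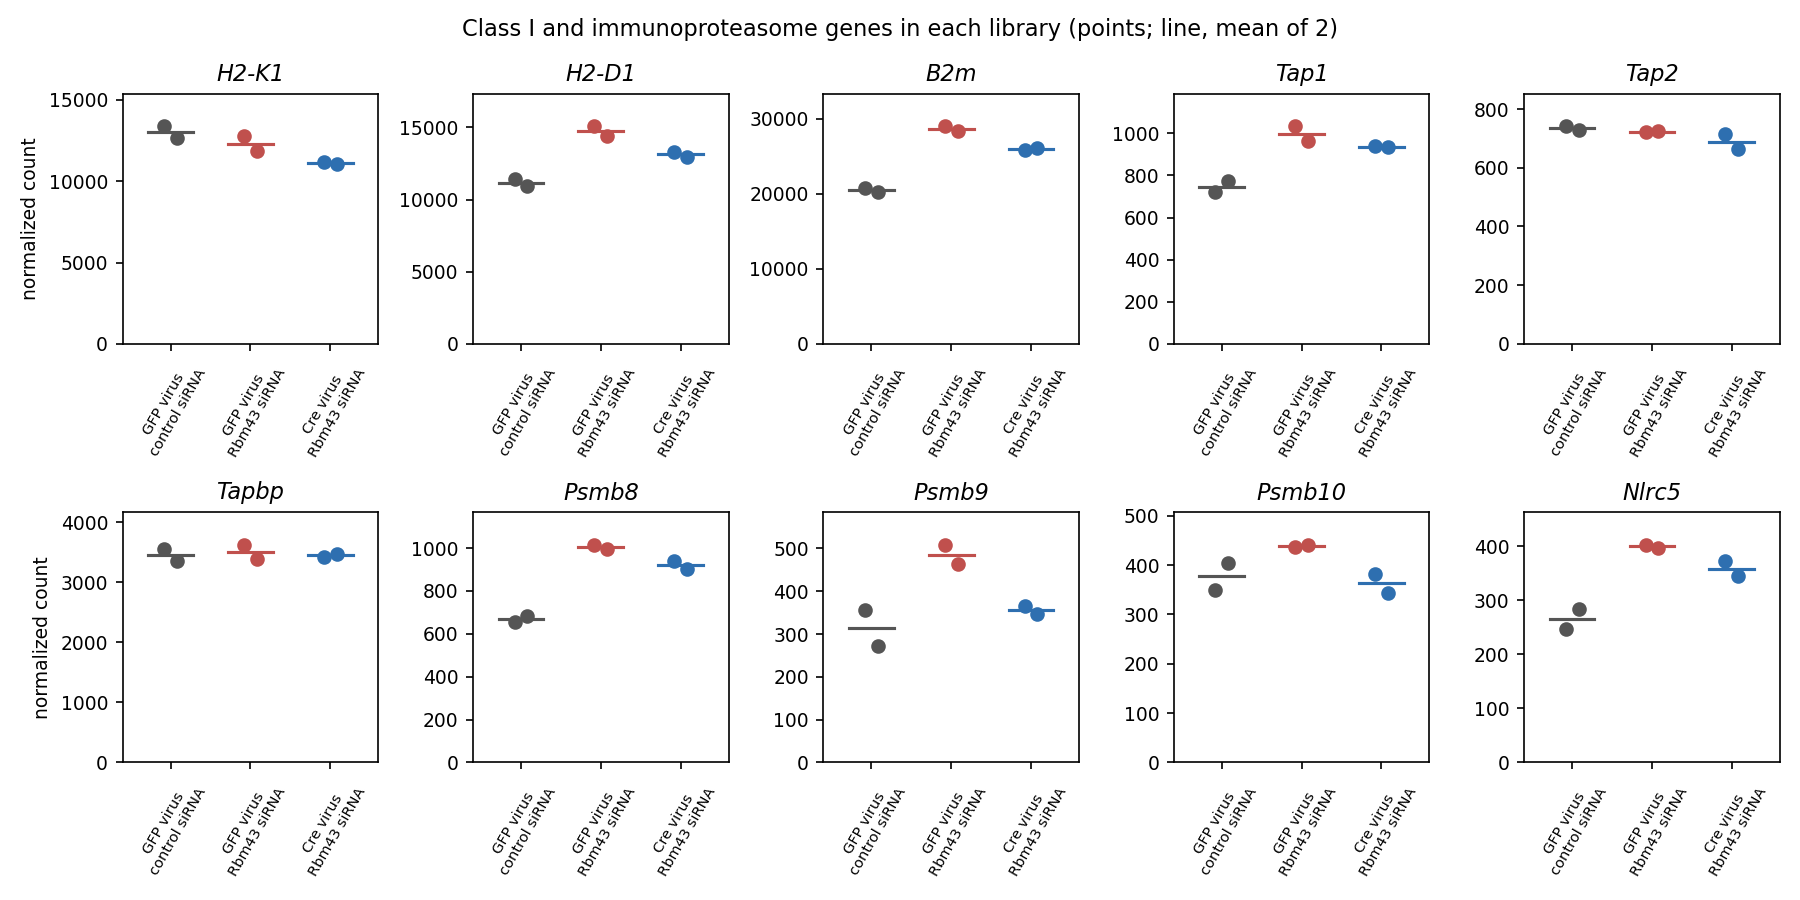
Normalized count of each of the 10 genes (y axis, from 0) in the 3 groups (x axis), with a point per library and a line at the mean of 2. With Rbm43 siRNA and GFP virus, both libraries lie above both controls for H2-D1, B2m, Tap1, Psmb8, Psmb9, Psmb10 and Nlrc5, while H2-K1 and Tapbp overlap.

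H2-K1 and H2-D1 encode the classical heavy chains that present peptide. H2-K1 stood at 13390 and 12661 normalized counts in the control libraries, at 12784 and 11846 with Rbm43 siRNA, and at 11205 and 11069 with Cre virus and Rbm43 siRNA. The first pair of groups overlapped, and both Cre libraries were the lowest of the 6. H2-D1 stood at 11405 and 10956 in the controls, at 15090 and 14442 with Rbm43 siRNA, and at 13323 and 12955 with Cre virus and Rbm43 siRNA. Its 3 groups did not overlap, with the controls lowest and the knockdown with GFP virus highest.

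With Rbm43 siRNA the H2-D1 mean went from 11180 ± 317 (SD, n = 2) to 14766 ± 458 (SD, n = 2), a log2 fold change of 0.40 ± 0.05 (SE; limma adjusted p = 3.08e-06). The H2-K1 mean was 13026 ± 516 (SD, n = 2) in the controls and 12315 ± 663 (SD, n = 2) in the knockdown. Its log2 fold change was -0.08 ± 0.05 (SE; limma adjusted p = 0.265), with a 95% interval of -0.18 to 0.02. With quantile scaling it was -0.15 (adjusted p = 0.0227). The lower bound of the H2-D1 interval, 0.30, lies above the upper bound for H2-K1.

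The log2 ratio of H2-D1 to H2-K1 within a library, a description chosen after the values had been seen, was -0.23 and -0.21 in the controls, 0.24 and 0.29 with Rbm43 siRNA, and 0.25 and 0.23 with Cre virus and Rbm43 siRNA. The controls thus held more H2-K1 than H2-D1 reads and the 4 knockdown libraries the reverse. The difference between knockdown and control with GFP virus was 0.48 ± 0.04 (SD of the difference), a 1.40-fold change in the ratio. The ratio was not tested, since it was chosen for this difference.

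The heavy chain transcripts are near copies, which bears on how reads are assigned. The principal transcripts of H2-K1 and H2-D1 were identical at 91.2% of 1470 aligned bases. No stretch of 150 bases, the read length, in H2-K1 occurs in the transcripts of another gene, and 35 of 1953 such stretches in H2-D1 (1.79%) also occur in H2-Q1. Mice of another haplotype than the reference could match these sequences less well, and this was not tested.

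B2m, the light chain shared by all class I molecules, had the highest level of the 10 genes. It stood at 20777 and 20300 normalized counts in the controls, at 29007 and 28378 with Rbm43 siRNA, and at 25800 and 26110 with Cre virus and Rbm43 siRNA. The 3 groups did not overlap and had the same order as for H2-D1. With Rbm43 siRNA it rose by 39.7%, from 20539 ± 338 to 28692 ± 445 (SD, n = 2 each; log2 fold change 0.48 ± 0.05 SE, limma adjusted p = 2.46e-07).

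**Figure D2:**
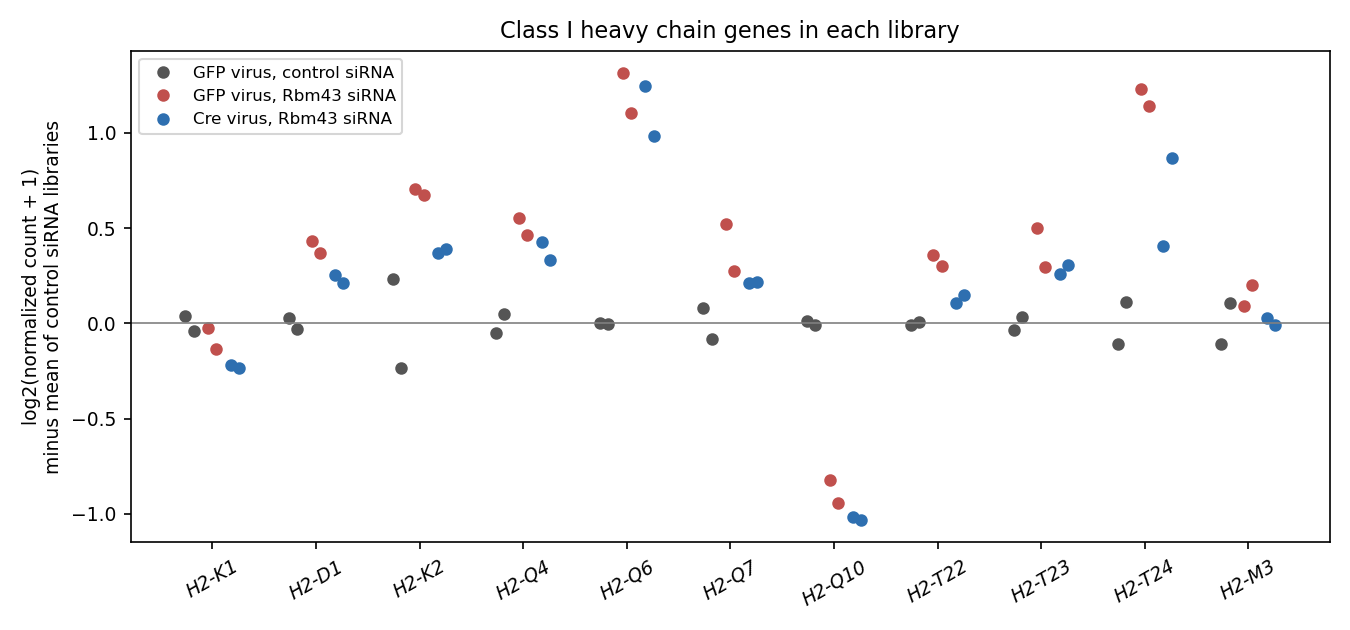
Class I heavy chain genes (x axis) in each library, as log2(normalized count + 1) minus the mean of the control libraries (y axis), with 1 point per library coloured by group. H2-D1, H2-Q4, H2-Q6 and H2-T24 are higher with Rbm43 siRNA and GFP virus, H2-K1 overlaps the controls, and H2-Q10 lies near -0.88 with GFP virus and -1.03 with Cre virus.

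Tap1 and Tap2 encode the paired subunits of the peptide transporter. Tap1 stood at 720 and 773 normalized counts in the controls, at 1034 and 963 with Rbm43 siRNA, and at 939 and 935 with Cre virus and Rbm43 siRNA. Tap2 stood at 742 and 729, at 722 and 724, and at 714 and 662 in the same order. The genes had nearly equal counts in the controls, and the Tap1 counts alone lay higher in all 4 knockdown libraries.

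Tap1 rose with Rbm43 siRNA by 0.42 ± 0.07 on the log2 scale (SE; limma adjusted p = 9.58e-05). The log2 fold change of Tap2 was -0.02 ± 0.07 (SE; limma adjusted p = 0.843), with a 95% interval of -0.17 to 0.12. The log2 ratio of Tap1 to Tap2, also chosen after the values had been seen, was -0.04 and 0.08 in the controls, 0.52 and 0.41 with Rbm43 siRNA, and 0.40 and 0.50 with Cre virus and Rbm43 siRNA. It was 0.44 ± 0.12 (SD of the difference) higher in the knockdown with GFP virus, with no overlap.

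Tapbp, which bridges the transporter and the heavy chain, had overlapping groups throughout. Its counts were 3557 and 3353 in the controls, 3624 and 3392 with Rbm43 siRNA, and 3427 and 3464 with Cre virus and Rbm43 siRNA. The log2 fold change with Rbm43 siRNA was 0.02 ± 0.05 (SE; limma adjusted p = 0.810), with a 95% interval of -0.09 to 0.13. Its sign depended on the scaling, with -0.00 for total and -0.01 for quantile scaling.

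Psmb8, Psmb9 and Psmb10 encode the catalytic subunits that take the places of Psmb5, Psmb6 and Psmb7. Psmb8 stood at 654 and 685 normalized counts in the controls, at 1016 and 993 with Rbm43 siRNA, and at 939 and 903 with Cre virus and Rbm43 siRNA. Psmb9 stood at 356 and 273, at 509 and 463, and at 365 and 347. Psmb10 stood at 350 and 404, at 437 and 441, and at 383 and 343. Only Psmb8 had both groups of knockdown libraries above both controls, whereas for Psmb9 and Psmb10 the Cre libraries overlapped the controls.

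With GFP virus, Psmb8 rose 1.5-fold with Rbm43 siRNA, from 670 ± 21.9 to 1005 ± 15.8 (SD, n = 2 each; log2 fold change 0.58 ± 0.06 SE, limma adjusted p = 1.56e-06). Psmb9 rose 1.55-fold, from 314 ± 58.8 to 486 ± 32.6 (SD, n = 2 each; log2 fold change 0.64 ± 0.11 SE, limma adjusted p = 1.79e-04). Without the mean-variance trend, the adjusted p of Psmb9 was 0.0608. Psmb10 was at 377 ± 38.6 in the controls and 439 ± 3.0 with Rbm43 siRNA (SD, n = 2 each). Its log2 fold change of 0.22 ± 0.09 (SE; limma adjusted p = 0.0880) did not pass, with a 95% interval of 0.03 to 0.42, and it was 0.33 with an adjusted p of 0.0130 without the second control library.

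The constitutive counterparts were compared within each library. The log2 ratio of Psmb9 to Psmb6 was -2.41 and -2.62 in the controls, -1.91 and -2.05 with Rbm43 siRNA, and -2.22 and -2.39 with Cre virus and Rbm43 siRNA. It was 0.54 ± 0.17 (SD of the difference) higher with Rbm43 siRNA than with control siRNA under GFP virus, a 1.45-fold change without overlap. The Cre libraries lay between those groups.

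The log2 ratio of Psmb8 to Psmb5 was -0.63 and -0.18 in the controls, -0.22 and -0.24 with Rbm43 siRNA, and -0.08 and -0.14 with Cre virus and Rbm43 siRNA. The first and second groups overlapped, with a difference of 0.17 ± 0.32 (SD of the difference). Psmb5, the constitutive subunit in the position of Psmb8, itself rose with Rbm43 siRNA by 0.41 on the log2 scale (limma adjusted p = 0.00153). Its counts of 1012 and 775 in the controls lay far apart, and 7.07% of its 150-base stretches also occur in the gene Gm3375.

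The log2 ratio of Psmb10 to Psmb7 was -3.09 and -2.70 in the controls, -2.99 and -2.92 with Rbm43 siRNA, and -2.88 and -3.07 with Cre virus and Rbm43 siRNA, and all groups overlapped. Of the 3 subunit pairs, Psmb9 to Psmb6 was the one whose ratio did not overlap between the GFP virus groups. Among single genes tested, 29.2% had both knockdown libraries above both controls and 29.2% had both below. No such share was measured for ratios, so this count does not set the pair apart.

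**Figure D3:**
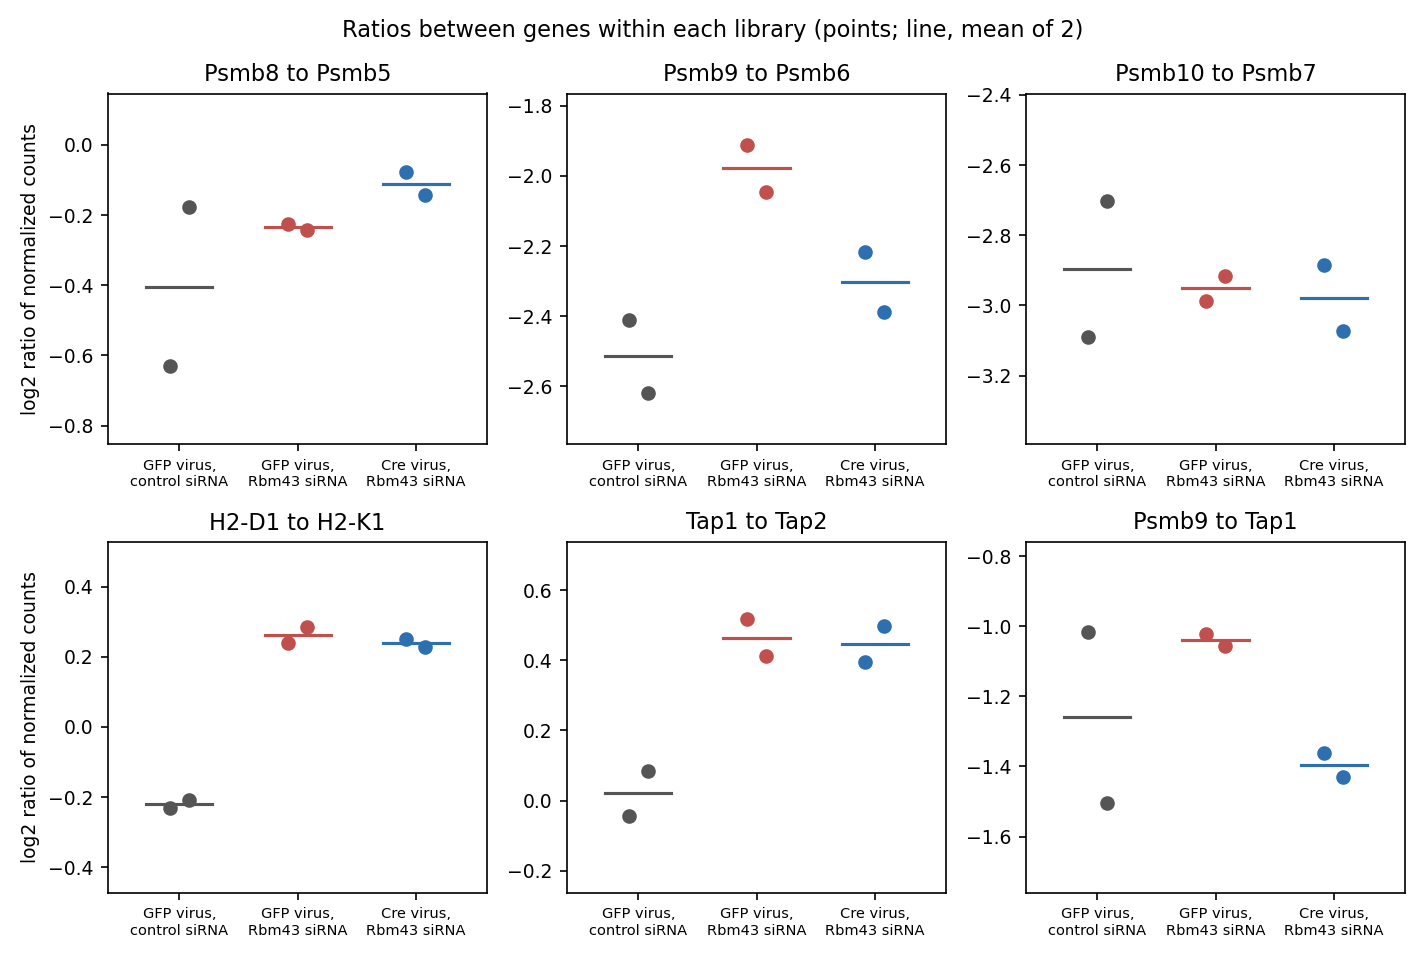
log2 ratio of normalized counts (y axis, each panel spanning 1 log2 unit at its own offset) for 6 gene pairs in the 3 groups, with a point per library and a line at the mean of 2. H2-D1 to H2-K1 and Tap1 to Tap2 are higher in all 4 libraries with Rbm43 siRNA, while Psmb10 to Psmb7 overlaps in every group.

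Nlrc5, the transactivator of class I genes, was the lowest of the 10 genes per length of transcript. It stood at 248 and 285 normalized counts in the controls, at 403 and 396 with Rbm43 siRNA, and at 373 and 344 with Cre virus and Rbm43 siRNA. All 4 knockdown libraries lay above both controls. With GFP virus it rose 1.5-fold with Rbm43 siRNA, from 266 ± 26.3 to 400 ± 4.63 (SD, n = 2 each; log2 fold change 0.59 ± 0.09 SE, limma adjusted p = 1.12e-04).

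Per kilobase of the principal transcript, the control libraries held a mean of 23882 normalized counts of B2m, 8046 of H2-K1 and 5319 of H2-D1. The next levels per kilobase were 1192 for Tapbp, 411 for Psmb8, 287 for Psmb10, 253 for Tap1, 232 for Psmb9, 214 for Tap2 and 35.1 for Nlrc5. On this scale B2m exceeded the sum of both classical heavy chains. With Rbm43 siRNA and GFP virus, H2-D1 at 7025 per kilobase came near H2-K1 at 7606. The constitutive subunits were at 994 (Psmb5), 2234 (Psmb6) and 2416 (Psmb7) per kilobase in the controls, each above its immunoproteasome counterpart.

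The second comparison asks what Cre virus did in cells that all had Rbm43 siRNA. It uses the same GFP virus libraries with Rbm43 siRNA as the comparison above, so the values of those libraries enter both, and no overlap between these comparisons is given. With Cre virus 2 of the 10 genes, H2-D1 and Psmb9, fell and none rose; edgeR and DESeq2 each called 3 lower and 0 higher. At an unadjusted p under 0.05, 5 were lower and 0 higher, beside 12.2% and 8.66% of all genes tested. Of all genes tested, 5.88% were called lower and 2.62% higher. In 9 of the 10 genes both Cre libraries lay below both GFP libraries, with Tapbp the exception. Over all genes tested, 27.5% had both Cre libraries below both GFP libraries and 26.2% had both above. The median log2 fold change was -0.14, against 0.00 over all genes.

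Psmb9 fell by 26.7%, from 486 ± 32.6 to 356 ± 12.8 (SD, n = 2 each; log2 fold change -0.45 ± 0.11 SE, limma adjusted p = 0.0108). H2-D1 fell from 14766 ± 458 to 13139 ± 260 (SD, n = 2 each; log2 fold change -0.17 ± 0.05 SE, limma adjusted p = 0.0285). The counts of members called rest on single libraries: leaving out the first GFP library with Rbm43 siRNA or either Cre library left 0 genes called, and leaving out the second GFP library left 1. Leaving out either control library, which takes no part in the difference, gave 5.

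B2m had a log2 fold change of -0.14 ± 0.05 (SE; limma adjusted p = 0.0563), H2-K1 one of -0.14 ± 0.05 (SE; adjusted p = 0.0835) and Psmb10 one of -0.28 ± 0.09 (SE; adjusted p = 0.0729). Their 95% intervals were -0.24 to -0.05, -0.25 to -0.04 and -0.47 to -0.08. On counts of reads recovered from the table, B2m was called (adjusted p = 0.0376 by edgeR and 0.0233 by DESeq2). The other genes had larger adjusted p: 0.275 for Psmb8 (-0.13), 0.373 for Nlrc5 (-0.16), 0.482 for Tap1 (-0.09), 0.606 for Tap2 (-0.07) and 0.842 for Tapbp (-0.03). Psmb9 had the largest difference of the 10 genes, beside a Tap1 interval of -0.23 to 0.05. The log2 ratio of Psmb9 to Tap1, chosen after the values had been seen, was -1.02 and -1.06 with GFP virus and -1.36 and -1.43 with Cre virus, a difference of -0.36 ± 0.05 (SD of the difference).

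In the same comparison the ratio of Psmb9 to Psmb6 differed by -0.32 ± 0.15 on the log2 scale (lower with Cre virus), and that of Psmb8 to Psmb5 by 0.12 ± 0.05 (SD of the difference), both without overlap. The ratios of H2-D1 to H2-K1 and of Tap1 to Tap2 each differed by -0.02 and overlapped. Adipocyte markers moved in the same libraries. Their sum was 330118 to 337567 with GFP virus and 284387 to 286570 with Cre virus. Its largest part was Fabp4, at 191083 and 190516 with GFP virus and 159622 and 162219 with Cre virus. Of the 8 markers, 5 were called lower, among them Pparg and Adipoq, beside 5.88% of all genes tested. The part of these markers in the result was not tested.

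**Figure D4:**
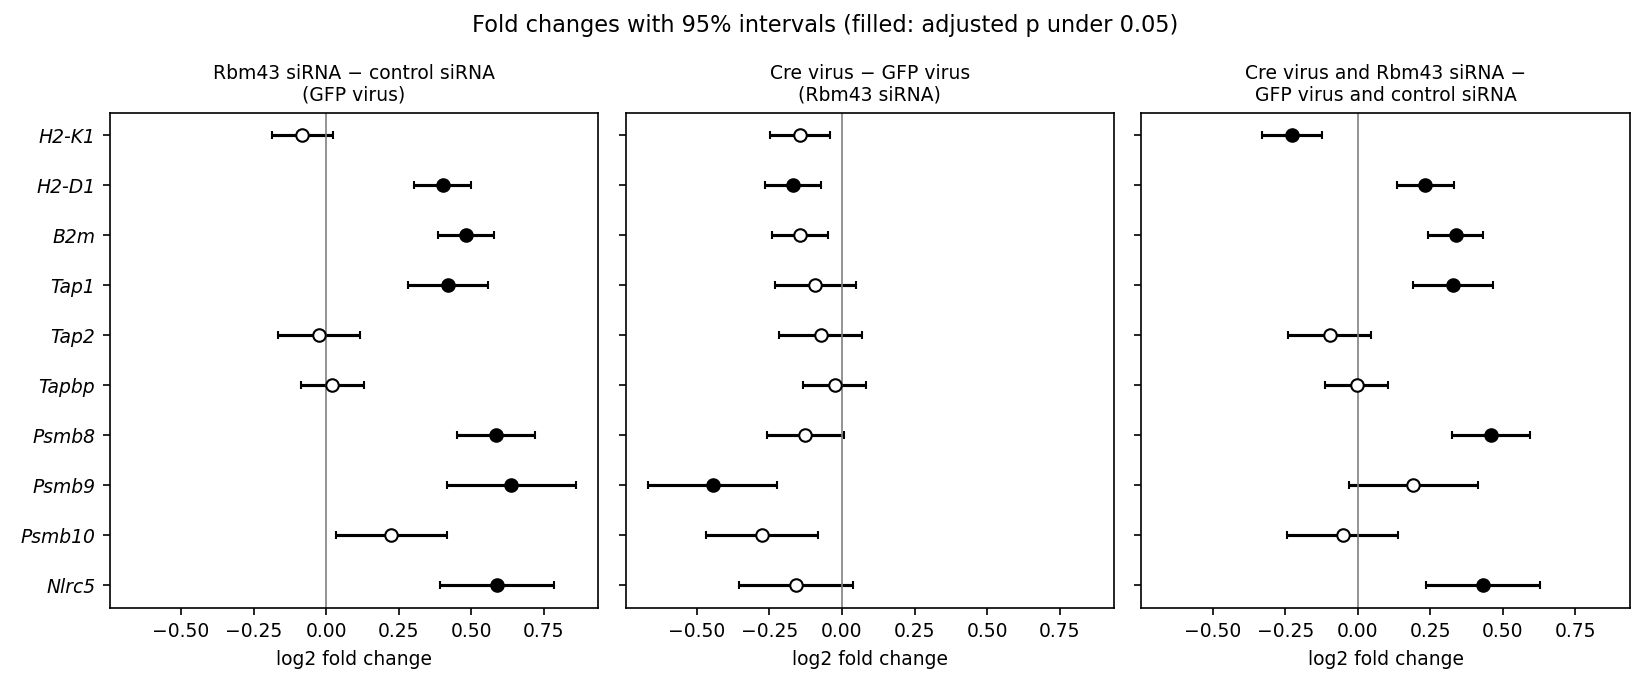
log2 fold change (x axis) of each of the 10 genes (y axis) in the 3 comparisons, with 95% intervals and filled points at an adjusted p under 0.05. In the left panel 6 points are filled, all above 0; in the middle panel 2, both below 0; and in the right panel 5 above 0 and H2-K1 below 0.

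The last comparison sets the Cre libraries against the controls and so changes virus and siRNA together. It shares its controls with the first comparison. H2-D1, B2m, Tap1, Psmb8 and Nlrc5 were higher (5 of 10) and H2-K1 was lower (1 of 10), against 8.47% of all genes called higher and 6.28% called lower. The median log2 fold change was 0.21, against -0.00 over all genes. Psmb8 was 0.46 ± 0.06 higher (SE; limma adjusted p = 4.88e-05), Nlrc5 0.43 ± 0.09 (adjusted p = 0.00355) and B2m 0.34 ± 0.05 (adjusted p = 3.52e-05) on the log2 scale. Tap1 was 0.33 ± 0.07 higher (adjusted p = 0.00179) and H2-D1 0.23 ± 0.05 (adjusted p = 0.00173).

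H2-K1 went the other way from H2-D1. Its mean fell by 14.5%, from 13026 ± 516 to 11137 ± 96.0 (SD, n = 2 each; log2 fold change -0.23 ± 0.05 SE, limma adjusted p = 0.00373). Without either Cre library the H2-K1 call was lost (adjusted p = 0.0788 and 0.100). Without the first Cre library, 2 genes were called higher in place of 5, with H2-D1, Tap1 and Nlrc5 lost (adjusted p = 0.0896, 0.0526 and 0.103). Without the mean-variance trend, Psmb8 alone was called.

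Psmb9 had a log2 fold change of 0.19 ± 0.11 (SE; limma adjusted p = 0.260), with a 95% interval of -0.03 to 0.41, and 0.38 (adjusted p = 0.00537) without the first control library, whose Psmb9 count of 356 was far above the other at 273. Psmb10 at -0.05 and Tap2 at -0.10 did not pass (adjusted p = 0.775 and 0.389), nor did Tapbp at -0.00 (0.977). The ratio of H2-D1 to H2-K1 was 0.46 ± 0.02 and that of Tap1 to Tap2 0.43 ± 0.12 higher than in the controls (SD of the difference).

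The 15 tested class Ib and class I-like genes have roles from antigen presentation to iron and antibody handling. With Rbm43 siRNA under GFP virus, 8 of the 15 rose and 1 fell, beside 13.5% and 9.76% of all genes tested. The median log2 fold change of the list was 0.33. Without the mean-variance trend, 4 rose and 1 fell. H2-Q6 went from 152 and 151 normalized counts to 378 and 326, a log2 fold change of 1.21 (limma adjusted p = 1.55e-07). H2-Q10, a heavy chain gene whose product is secreted, went the opposite way, from 2579 and 2544 to 1447 and 1333 (-0.88, adjusted p = 2.53e-09). H2-Q4 (0.51) and H2-T22 (0.33) rose as well. Of the 150-base stretches of H2-Q6, 5.99% also occur in H2-Q7, and 11.6% of those of H2-Q7 occur in H2-Q6 or H2-Q5. With H2-Q7 at 913 normalized counts in the controls, reads of H2-Q7 could make up a larger part of the H2-Q6 count than these shares, and that part was not measured.

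In the Cre libraries H2-Q10 stood at 1264 and 1252 and H2-Q6 at 360 and 300, near their values in the other knockdown libraries. Against GFP virus with Rbm43 siRNA, none of the 15 rose and 2 fell, beside 2.62% and 5.88% of all genes. The 2 were Cd1d1 (-0.27), which presents lipids, and H2-T22 (-0.20), and the list median was -0.14. Against the controls, 3 of the 15 were higher with Cre virus and Rbm43 siRNA (H2-Q6, H2-Q4 and H2-T23), beside 8.47% of all genes. Another 3 were lower (H2-Q10, Fcgrt and Cd1d1), beside 6.28% of all genes. Heavy chain genes thus stood both above and below the controls in these cells. Without either Cre library these counts were 2 and 1, without the first control 5 and 3, and the 2 genes lower against GFP virus became 0; they were 1 without either GFP library with Rbm43 siRNA and 4 without either control.

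Of the 15 peptide loading and trimming partners tested, 1 rose and 5 fell with Rbm43 siRNA under GFP virus. Over all genes the shares called were 13.5% higher and 9.76% lower. The median log2 fold change of the list was -0.01. Those that fell included the chaperones and quality-control genes Pdia3 (-0.21), Uggt1 (-0.23) and Calr (-0.17), and the one that rose was Tapbpl (0.31), which edits the peptides on class I molecules. With Cre virus 1 gene, Prkcsh, was higher (0.17) and none lower, beside 2.62% and 5.88% of all genes. Against the controls 0 of 15 were called by limma, edgeR or DESeq2. With an unadjusted p under 0.05, 3 were higher and 1 lower, beside 14.9% and 12.5% of all genes. The 1 that rose with Rbm43 siRNA became 0 with total scaling, by DESeq2 and without either Cre library, and 2 without the first control. The 1 higher with Cre virus became 0 by DESeq2 and without any 1 of the 4 libraries compared, and 3 with total or quantile scaling and without either control. The count of 5 lower was 3 by DESeq2, 0 without the mean-variance trend, 3 without the first GFP library with Rbm43 siRNA, and 2 without the first control, the second GFP library with Rbm43 siRNA or either Cre library.

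The constitutive core is the barrel that the immunoproteasome subunits enter. Of its 14 constitutive subunits, 6 rose and none fell with Rbm43 siRNA under GFP virus, beside 13.5% and 9.76% of all genes. With Cre virus 5 fell and none rose, beside 5.88% and 2.62% of all genes. Psma1, a structural subunit of the outer ring, had a log2 fold change of 0.48 (limma adjusted p = 4.10e-07) in the first and -0.44 (adjusted p = 1.26e-05) in the second. Psma5, Psmb3 and Psmb7 rose by 0.30, 0.31 and 0.28 with Rbm43 siRNA and had -0.24, -0.32 and -0.25 with Cre virus. The comparisons share the GFP virus libraries with Rbm43 siRNA. Between the Cre libraries and the controls 0 of the 14 were called by limma, edgeR or DESeq2. With an unadjusted p under 0.05, 1 was lower, beside 12.5% of all genes. The medians in the 3 comparisons were 0.12, -0.14 and -0.02. Without the mean-variance trend, 2 of the 14 rose with Rbm43 siRNA and 0 fell with Cre virus. The 5 lower became 1 without either Cre library, 2 without the first GFP library with Rbm43 siRNA, and 8 or 9 without a control.

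The PA28 activator genes Psme1 and Psme2, whose ring caps the proteasome and which interferon induces, lead the list of activators. Psme2 stood at 2320 and 2091 normalized counts in the controls, at 2731 and 2677 with Rbm43 siRNA, and at 2139 and 2155 with Cre virus and Rbm43 siRNA. It rose by 0.30 (limma adjusted p = 5.92e-04) and had a log2 fold change of -0.33 with Cre virus (adjusted p = 6.58e-04). Of the 9 activator and assembly genes tested, 3 rose with Rbm43 siRNA, beside 13.5% of all genes. The 3 became 2 by DESeq2, with no filter, with only the 2 groups compared, and with upper-quartile, total or quantile scaling. Without the mean-variance trend there were 0. With Cre virus 2 fell, Psme2 and Psme1, beside 5.88% of all genes. These became 1 by DESeq2 or with no filter, and 0 without the trend. That count of 2 was 1 without any 1 of the 4 libraries compared. Against the controls 0 of the 9 were called by limma, edgeR or DESeq2. With an unadjusted p under 0.05, 1 was lower, beside 12.5% of all genes. The Psme2 levels in the Cre libraries lay within the range of the controls.

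Of 28 tested transcription factor and interferon signalling genes, 4 rose and none fell with Rbm43 siRNA under GFP virus, with a median log2 fold change of 0.01. That share is near the 13.5% of all genes called higher, so the count does not set the list apart. Irf7, an interferon-induced amplifier of the type I response, went from 1104 and 1271 normalized counts to 2871 and 2458 (1.16, limma adjusted p = 1.86e-09) and stood at 2453 and 2558 with Cre virus. Stat2 (0.24, adjusted p = 0.0247), which carries the type I interferon signal to the nucleus, and Usp18 (0.55, adjusted p = 0.00870), which dampens it, also rose. Stat2 went from 1901 and 2382 to 2594 and 2437, and Usp18 from 327 and 503 to 679 and 516. The count of 4 was 2 by DESeq2, with no filter and without the mean-variance trend. Irf1, a factor known to act on class I and immunoproteasome promoters and named here after its values were seen, had 0.10 (adjusted p = 0.357).

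With Cre virus, 2 of the 28 fell, among them Nfyc (-0.29), a subunit of the Y box factor NF-Y, a share near the 5.88% of all genes called lower. Against the controls 2 were higher, among them Irf7 (1.08), beside 8.47% of all genes. The 2 that fell with Cre virus became 1 without the first GFP library with Rbm43 siRNA, 0 without the second or either Cre library, and 4 without either control. Of the 4 that rose with Rbm43 siRNA, 2 were left without the first GFP library, and the 2 higher than the controls became 6 without the second control. Ifng was listed at 0 in every library and Ifnb1 at no more than 1.22. Ciita, the class II counterpart of Nlrc5, was also at no more than 1.22.

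Of 11 MHC class II pathway genes, 5 were tested. With Rbm43 siRNA under GFP virus, 2 of them rose, beside 13.5% of all genes: H2-DMa (0.47) and Ctss (0.33). Neither was called without the second control library or without the first GFP library with Rbm43 siRNA. Cd74, the invariant chain that professional presenting cells make in quantity, stood at 3.73 to 14.6 normalized counts. The tested genes stood at 308 to 440 (H2-Ab1), 259 to 278 (H2-DMb1), 228 to 344 (Ctss), 91.3 to 143 (H2-DMa) and 5.87 to 16.5 (H2-Eb1). With Rbm43 siRNA under GFP virus, DESeq2 and limma without the mean-variance trend called 0 of the 5. In the other comparisons limma, edgeR and DESeq2 called 0 of the 5. With an unadjusted p under 0.05 there were 0 for Cre against GFP virus. Against the controls there was 1, which was higher, beside 14.9% of all genes. The sum of macrophage markers was 1762 to 1817 in the controls, 1531 to 1784 with Rbm43 siRNA and 1747 to 1852 with Cre virus. With Rbm43 siRNA under GFP virus, 3 of the 10 macrophage markers were called lower and none higher, beside 9.76% and 13.5% of all genes.

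The sum of adipocyte markers was 249536 to 262996 in the controls and 330118 to 337567 with Rbm43 siRNA under GFP virus. Its largest part was Fabp4, at 137846 and 125493 in the controls and 191083 and 190516 in the knockdown, so the sum mainly follows that gene. Of the 8 markers, 5 were called higher and 1 lower, beside 13.5% and 9.76% of all genes tested. Adipoq had 0.07 (limma adjusted p = 0.314). Most of these markers thus moved with the class I genes in this comparison. Between the Cre libraries and the controls, 3 were called higher and 3 lower, beside 8.47% and 6.28% of all genes tested. The part of these markers in the result was not tested. The fibroblast and preadipocyte markers summed to 31829 to 33657, 30261 to 32246 and 31926 to 32587 in the 3 groups. Endothelial markers summed to 249.7 to 250.7 in the controls, 276 to 286 with Rbm43 siRNA and 320.1 to 348 with Cre virus. Dendritic cell markers summed to 108 to 146, 131.1 to 131.5 and 122 to 126, with Flt3, Xcr1, Siglech and Cd209a at 0 throughout. Nearly all of these sums came from Zbtb46, at 101 to 139, with Itgax at 2.91 to 7.83.

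**Figure D5:**
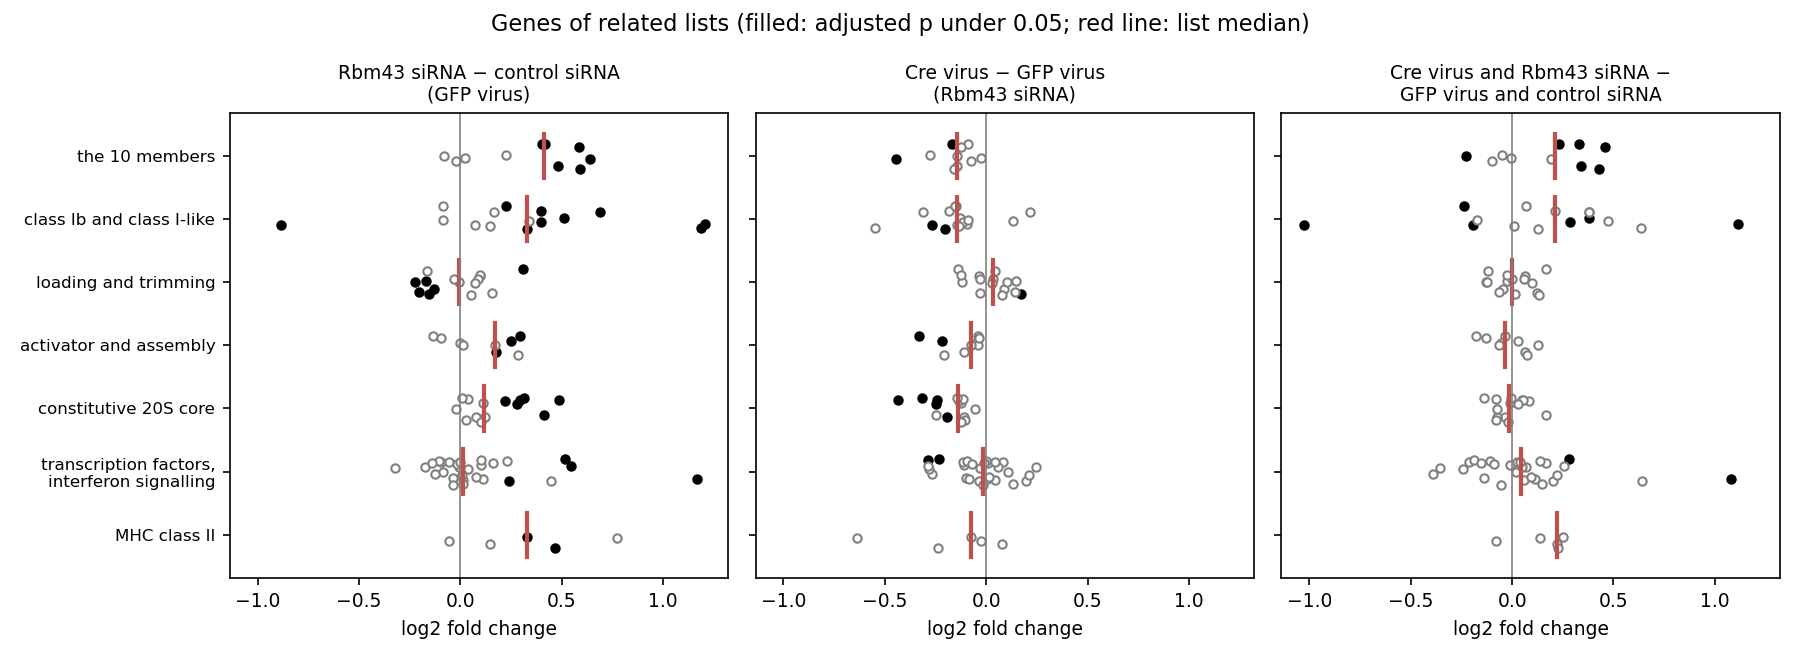
log2 fold change (x axis) of the tested genes of each list (y axis) in the 3 comparisons, with filled points at an adjusted p under 0.05 and a red line at the list median. In the left panel the medians of the 10 genes (0.41) and the class Ib list (0.33) lie to the right of the constitutive core (0.12) and the loading list (-0.01).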

How the data were processed

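RNA was measured in 6 libraries of primary mouse adipocytes, grouped and numbered by their titles. Values in the deposited table are a signal per gene, the authors' read counts divided by 1 factor per library (normalized counts). All of its values were whole multiples of 1 read within 0.01 read, 1 read being worth 0.878 to 1.217 normalized counts. The submitters' processing notes name DESeq2 2.11.40.7, STAR 2.7.8, fastp 0.23.2 and the mm10 build. The gene counter, annotation and strand setting were not given in the sources used here.

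Genes at 10 or more in at least 2 libraries were tested in limma 3.58.1 under R 4.3.3, on log2(normalized count + 1) with a trend of variance on the mean. All 6 libraries entered 1 fit (residual degrees of freedom 3, with 15.5 prior degrees of freedom from pooling over genes). Every library, the controls included, thus enters the spread used in each comparison. On recovered reads, the chi-square per degree of freedom between the 2 libraries was 4.19 in the controls. It was 2.76 with Rbm43 siRNA under GFP virus and 1.77 with Cre virus and Rbm43 siRNA. The shared spread does not follow these differences between groups. Adjustment was by Benjamini-Hochberg over 14211 genes at 0.05. Fold changes are on that log2 scale, which understates low genes. The procedure was also run on simulated counts with the same setting of spread for every gene, which cannot measure its error on these libraries.

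The members and lists were chosen with earlier results of these data known. Besides the 10 members, the named genes are Rbm43, Ppargc1a, the counterparts Psmb5, Psmb6 and Psmb7, up to 4 members of each list with the smallest p, and the 8 genes most correlated with the members' mean z-score. Irf1, Ciita, Cd74, Ifnb1 and Ifng were named after their values were seen. Some genes counted in the lists are not reported here by name. Promoters came from RefSeq on GRCm38.p6, and transcript lengths from GENCODE M21. The other settings tried were pseudocounts of 0.5 and 5, no filter, a minimum of 50, upper-quartile, total and quantile scaling, a replicate block, only the 2 groups compared, no trend, each library left out, and count tests on the reads recovered from the table, with DESeq2 1.42.0 and with edgeR 4.0.16, which called 3263, 1336 and 2111 genes.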

Additional observations from a re-analysis of the deposited data

How the results depend on the processing

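Of 540 combinations of gene, comparison and setting, 493 kept their direction and side of the threshold, 23 lost the call, 15 gained one and 9 changed sign. The 6 genes called higher with Rbm43 siRNA under GFP virus numbered 5 without the mean-variance trend and 6 or 7 with 1 library left out. The count of genes called lower there was 1 with quantile scaling (H2-K1). With Cre virus against GFP virus, the 2 lower genes became 0 with no filter, 1 with total scaling, 5 with only the 2 groups compared and 0 without the trend. Minimum 50, edgeR and DESeq2 each gave 3, and 1 library left out gave 0 to 5. Against the controls, the 5 higher genes became 1 and the 1 lower became 0 without the trend, and with 1 library left out they ranged from 2 to 6 and from 0 to 1.

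Over all genes, the 3301 called with Rbm43 siRNA became 1304 without the trend, 2035 by DESeq2, and 2101 to 3634 with 1 library left out (lowest without the second GFP library with Rbm43 siRNA). The 1208 called with Cre virus became 609 with no filter, 2070 with only the 2 groups, 0 without the trend (where 2355 had an unadjusted p under 0.05; edgeR called 1336 and DESeq2 838) and 310 to 2067 with 1 library left out (310 and 329 without a Cre library, 457 without the second GFP library, 2060 and 2067 without a control). The 2096 called against the controls became 1251, 433 (no trend), 1220 (DESeq2) and 765 to 2647 (765 and 826 without a Cre library). Where an arm kept 1 library, that library was assumed to vary like the others. The split of 1914 higher and 1387 lower with Rbm43 siRNA was 1678 and 1679 under total scaling and 1633 and 1590 under quantile scaling. With Cre virus, the split of 372 and 836 was 565 and 734 under total scaling. No scaling moved the median of all genes by over 0.1.

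The sign changed only in genes that were never called there: Tapbp with Rbm43 siRNA (-0.00383 total scaling, -0.0141 quantile, -0.0261 to 0.0695 with 1 library left out), Tapbp with Cre virus (-0.0728 to 0.0227) and against the controls (-0.0458 to 0.0391), and Psmb10 against the controls (-0.156 to 0.0526). The cause was not tested. Over all genes tested, libraries of the same replicate number did not deviate together (correlations of 0.0187, -0.0420 and -0.0373). These values cannot tell whether such libraries share an animal or a batch, which is not given. With the replicate block 3412, 1304 and 2214 genes were called and the members' counts were 6 higher, 2 lower, and 5 higher with 1 lower. At 2 libraries per group, small differences such as those of Tap2 and Tapbp are bounded only by their intervals.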

Other observations

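The mean z-score of the 10 genes over the 6 libraries was closest to Pex10 (Pearson r = 0.9997), a peroxisomal ubiquitin ligase gene, followed by Tamm41 (0.993), which acts in mitochondrial cardiolipin synthesis, and Mtf1 (0.990), a metal-responsive transcription factor. Fam195a (0.986), Krt36 (0.985), Cmc2 (0.985), Mrpl13 (0.985) and Sema3g (0.983) came next among 11627 genes with a mean of at least 50. Pex10 stood at 101 and 94.9 normalized counts in the controls, at 150 and 131 with Rbm43 siRNA, and at 115 and 104 with Cre virus and Rbm43 siRNA. These correlations are over 6 libraries in 3 groups that share their scaling, and with so few points many genes come close to 1.

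The members followed their own mean unequally. That mean includes each gene itself, so each r is in part the correlation of a gene with itself. Psmb9 (r = 0.95), H2-D1 (0.94) and B2m (0.86) followed it most closely, Psmb8, Nlrc5 and Tap1 had 0.82 each, and Psmb10 had 0.72. Tapbp (0.45), Tap2 (0.10) and H2-K1 (-0.02) followed it least.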
